A study of Mus musculus with 7 samples.

Results

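The insulin-like growth factor (IGF) genes described here are Igf1, its receptor gene Igf1r and 5 genes for IGF-binding proteins, Igfbp2, Igfbp3, Igfbp4, Igfbp5 and Igfbp7. They were chosen by name, and all 7 were among the 14732 genes with deposited values. RNA was sequenced from pools of mouse outflow tract (OFT), the tube at the arterial pole of the embryonic heart, at embryonic day 11.5. There were 3 pools of control (WT) tissue and 4 of Gata6STOP/+ tissue, named below by genotype and replicate number. The Gata6STOP/+ embryos were heterozygous in every tissue for a CRISPR-Cas9 allele with a premature stop codon in exon 2 of Gata6, and the line came from 1 founder backcrossed to C57BL/6. The study describes each pool as 4 pairs of OFT and gives the same number of pools for both genotypes, whereas the sample labels hold 1 more Gata6STOP/+ pool than control pools. A resource list of the study names Mib1 alleles as the background of the line, and whether these pools carried them was not stated. Nothing in the labels ties a pool to a litter, so the p-values below measure the spread between pools.

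IGF1 and IGF2 are secreted ligands that activate IGF1R, a receptor tyrosine kinase, which signals through adaptor proteins to the PI3K-AKT, mTOR and RAS-MAPK arms. IGF2R binds IGF2 and carries it to lysosomes, and the binding proteins hold the ligands outside cells until proteases release them. In the midgestation heart, IGF signaling is known for its role in cardiomyocyte proliferation.

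Reads on the listed genes numbered between 17783655 (control replicate 5) and 34467710 (Gata6STOP/+ replicate 5) per pool. Values are CPM, reads of a gene scaled to a common library size, with the trimmed mean of M-values (TMM) scaling of the authors. The tissue label was checked against marker genes. All 10 cardiomyocyte markers were listed, with a summed CPM from 18850 to 26700, and Actc1 was the most abundant of them per length at 3236 CPM per kb. Of the 6 smooth muscle markers all were listed, led by Acta2 at 778 CPM per kb. The 7 cushion mesenchyme markers were led by Col1a1 at 183 CPM per kb, and the 9 endothelial and endocardial markers by Cdh5 at 42.2 CPM per kb. Transcripts of muscle, cushion and endocardium were thus all present, with those of other cell types. Erythroid markers, led by Hbb-y, summed to between 2236 and 6801 CPM, and macrophage markers, led by C1qb, to between 43.8 and 112 CPM. Upk3b led the epicardial and mesothelial markers. Only 3 of the 7 pharyngeal and foregut epithelium markers were listed, led by Krt8, and the defining genes Epcam, Cdh1, Shh and Foxa2 were not among the listed genes. Of the second heart field markers, 5 of 6 were listed, led by Hand2, and Fgf8 was not.

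Gata6 itself was measured first. Its CPM was 315, 257 and 286 in control replicates 3, 4 and 5, and 268, 203, 219 and 217 in Gata6STOP/+ replicates 1, 3, 4 and 5. In 3 of the 4 Gata6STOP/+ pools Gata6 lay below every control pool, and replicate 1 lay above control replicate 4. The log2 fold change of Gata6STOP/+ against control, on the log2(CPM + 0.5) scale used throughout, was -0.34 (95% interval -0.56 to -0.12, limma adjusted p = 0.389). The edgeR likelihood ratio test gave an adjusted p of 0.154 without and 0.0164 with the replicate number as a block, where the log2 fold change was -0.42. Gata6STOP/+ replicate 1 has no control pool of its number, and leaving it out of limma also gave -0.42 (adjusted p = 0.17). Reads of both alleles are counted together, so the value does not measure the protein.

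Of the 7 genes, Igfbp5 separated the genotypes, Igfbp2 came closest to doing so, and the other 5 overlapped more. No gene passed an adjusted p of 0.05 in limma (0 of 14732, 0%), where 1187 genes (8.06%) had an unadjusted p under 0.05, and the edgeR quasi-likelihood test on recovered reads also called 0 (0%). The edgeR likelihood ratio test called 105 genes (0.713%) and DESeq2 called 88 (0.597%). Among the 7 genes, 2 had an unadjusted limma p under 0.05. The groups did not overlap for 1 of the 7, against 1248 of all listed genes (8.47%), of which 635 were higher in Gata6STOP/+ (4.31%) and 613 lower (4.16%). With 7 genes, 1 is near this background and says nothing particular about them.

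**Figure D1:**
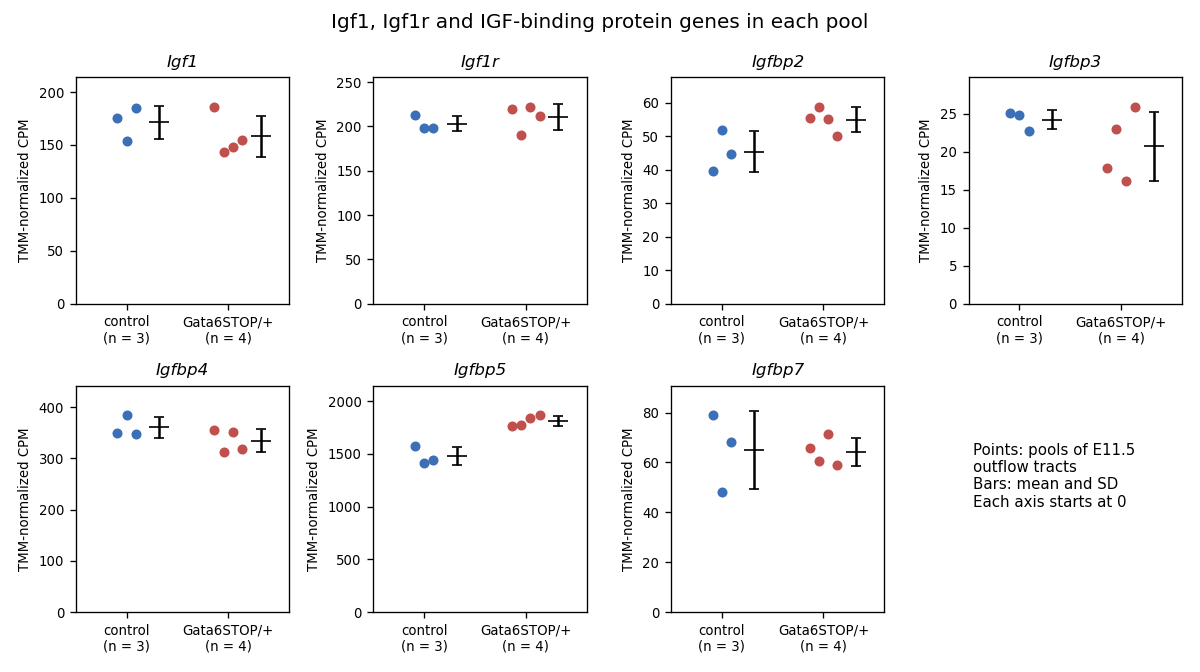
TMM-normalized CPM (vertical axes, each from 0) of the 7 genes in the 3 control and 4 Gata6STOP/+ pools, 1 point per pool, with the mean and SD beside the points. Igfbp5 points run from 1418 to 1577 CPM in control and from 1768 to 1869 CPM in Gata6STOP/+, and the points of the other 6 genes overlap between genotypes.

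Igf1 encodes the ligand. Igf1 CPM was 175, 154 and 185 in control replicates 3, 4 and 5, and 186, 143, 148 and 155 in Gata6STOP/+ replicates 1, 3, 4 and 5. The highest and the lowest pool were both Gata6STOP/+, and the groups overlapped. The log2 fold change of Igf1 was -0.12 (95% interval -0.33 to 0.09, limma adjusted p = 0.79). Leaving out Gata6STOP/+ replicate 1 gave -0.20 (limma unadjusted p = 0.0221, adjusted p = 0.54), and leaving out control replicate 5 gave -0.06. The groups still overlapped in both cases.

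Igf1r encodes the receptor that both IGF ligands use. Igf1r CPM ranged from 198 to 213 in control and from 190 to 222 in Gata6STOP/+ pools. Gata6STOP/+ pools again held both extremes. Igf1r had a log2 fold change of 0.05 (95% interval -0.10 to 0.20, limma adjusted p = 0.882).

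Igfbp5 encodes a secreted protein that binds IGFs and also extracellular matrix. Igfbp5 CPM was 1577, 1418 and 1441 in control replicates 3, 4 and 5, with a mean of 1479 ± 85.8 (SD, n = 3). In Gata6STOP/+ replicates 1, 3, 4 and 5 it was 1768, 1773, 1837 and 1869, with a mean of 1812 ± 49.3 (SD, n = 4). All 4 Gata6STOP/+ pools lay above every control pool. The difference in mean was 22.6%, and the log2 fold change 0.29 (SE 0.08, 95% interval 0.12 to 0.47). It did not pass the threshold in limma (unadjusted p = 0.00307, adjusted p = 0.332) but passed it in the edgeR likelihood ratio test (adjusted p = 0.049) and DESeq2 (adjusted p = 0.000516). With the replicate number as a block the likelihood ratio test lost this call (adjusted p = 0.229), at a log2 fold change of 0.31. The exact two-sided permutation test gave p = 0.0286, which is the smallest that the 35 ways of parting 7 pools can give, and 694 of all listed genes (4.71%) reached it. Each pool held between 25728 and 64277 reads of Igfbp5, so counting error (1 Poisson SD, which leaves out PCR copying) came to at most 0.623% of the value.

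Igfbp2 encodes a secreted binding protein as well. Igfbp2 CPM was 39.8, 51.8 and 44.6 in control replicates 3, 4 and 5, and 55.6, 58.9, 55.3 and 49.98 in Gata6STOP/+ replicates 1, 3, 4 and 5. In 3 of the 4 Gata6STOP/+ pools it lay above every control pool, and replicate 5 lay below control replicate 4. The log2 fold change of Igfbp2 was 0.28 (95% interval 0.08 to 0.48, limma unadjusted p = 0.0114, adjusted p = 0.451). The exact permutation test gave p = 0.0857. Without control replicate 3 the log2 fold change was 0.19, and without control replicate 4 it was 0.38.

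Igfbp4 encodes a binding protein that the protease PAPP-A cleaves. Igfbp4 CPM ranged from 347 to 384 in control and from 313 to 355 in Gata6STOP/+ pools, and 2 of the 4 Gata6STOP/+ pools lay below every control pool. Its log2 fold change was -0.11 (95% interval -0.26 to 0.04, limma adjusted p = 0.741).

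Igfbp3 encodes the main IGF carrier of adult serum. Igfbp3 CPM lay between 22.7 and 25.0 in control pools, and was 17.8, 22.9, 16.1 and 25.9 in Gata6STOP/+ replicates 1, 3, 4 and 5. The Gata6STOP/+ pools were split, with replicates 1 and 4 below every control pool and replicate 5 above them all. The fewest reads in a pool were 396, fewer than for the other 6 genes. Igfbp3 had a log2 fold change of -0.24 (95% interval -0.56 to 0.07, limma adjusted p = 0.722).

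Igfbp7 encodes a protein that binds IGFs with low affinity. Igfbp7 CPM was 79.0, 48.2 and 68.1 in control replicates 3, 4 and 5, and between 58.9 and 71.5 in the Gata6STOP/+ pools. Here the control pools spread more widely than the Gata6STOP/+ pools, which all lay within the control range. For Igfbp7 the log2 fold change was 0.01 (95% interval -0.30 to 0.31, limma adjusted p = 0.994), and its sign turned in edgeR, in DESeq2, with the replicate block, and without control replicate 4 (-0.20), Gata6STOP/+ replicate 1 (-0.0084) or Gata6STOP/+ replicate 4 (-0.048).

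**Figure D2:**
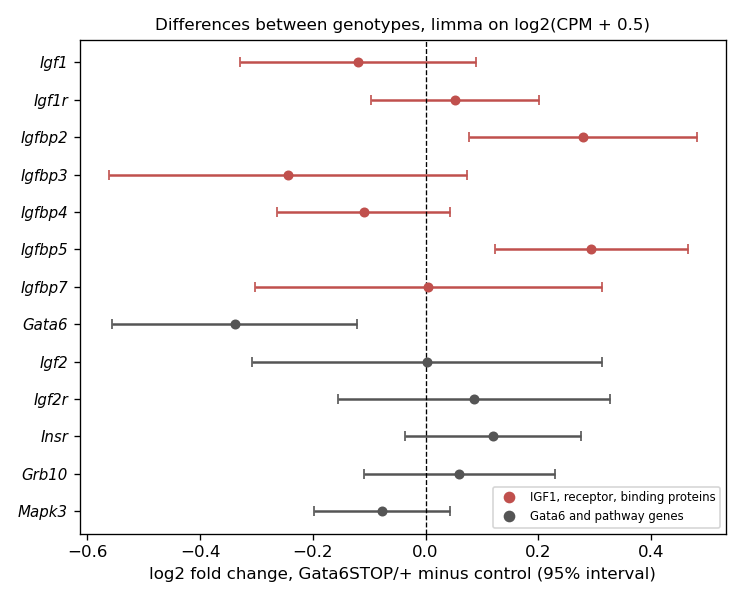
Log2 fold change of Gata6STOP/+ (n = 4 pools) against control (n = 3 pools) on the horizontal axis, with 95% intervals from limma, for the 7 IGF genes (red) and for Gata6 and pathway genes (grey). The intervals of Igfbp5 (0.12 to 0.47), Igfbp2 (0.08 to 0.48) and Gata6 (-0.56 to -0.12) lie to 1 side of 0, and no gene passes the adjusted threshold.

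Levels were compared between genes per kb of exon. In control pools Igfbp5 was the most abundant of the 7 at 246 ± 14.3 CPM per kb (SD, n = 3), followed by Igfbp4 at 81.6 ± 4.70, Igfbp7 at 53.9 ± 12.9 and Igfbp2 at 24.6 ± 3.29. Igf1 was at 17.3 ± 1.59, Igf1r at 12.1 ± 0.51 and Igfbp3 at 7.73 ± 0.40 CPM per kb. Each gene in this order lay above the next in all 7 pools, and the ranges over pools of neighbours in the order did not overlap. Igf2, the other ligand, was far more abundant than Igf1, at 1489 ± 156 CPM per kb in control pools. Igf2r was at 279 ± 28.7 and Insr, the insulin receptor gene, at 6.09 ± 0.47 CPM per kb.

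Igfbp2 and Igfbp5 are neighbours on chromosome 1 (GRCm38). Igfbp2 spans chr1:72824503-72852474 on the plus strand and Igfbp5 chr1:72857932-72874884 on the minus strand, so that their 3′ ends face each other across 5457 bases. Over the 7 pools their log2 CPM had a Pearson correlation of 0.52, given as a description. The strongest negative correlation among the 7 genes was that of Igfbp4 with Igfbp5, at -0.64.

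The sequence before Igfbp5 is shown because Igfbp5 was the gene of the 7 whose groups did not overlap. RefSeq promoter windows (GRCm38.p6, 300 bases) matched all 7 genes, and were searched on both strands for the letters that GATA factors are known to bind, spelled AGATAA or with a first letter T as TGATAA, and likewise ending in G as AGATAG or with a first letter T as TGATAG. Of all 32851 windows 9778 (29.8%) held such a match. Igf1 had 2 matches, in a window that lies inside the annotated span of the gene, and the windows of the other 6 genes had 0. The 231 bases before the annotated start of Igfbp5, chr1:72874885-72875115 on the minus strand, are printed without capitals because no match was found in them.
Igfbp5: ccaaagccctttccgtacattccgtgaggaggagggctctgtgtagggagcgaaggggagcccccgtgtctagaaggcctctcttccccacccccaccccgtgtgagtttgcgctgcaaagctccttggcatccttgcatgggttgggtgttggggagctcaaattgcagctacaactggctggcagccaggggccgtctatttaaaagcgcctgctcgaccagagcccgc

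Other genes of the pathway were taken from lists of ligands, receptors, binding proteins, proteases and signaling arms. Of 55 genes 47 were listed, and 0 of them passed the limma threshold in either direction. As limma called 0 of all 14732 genes, this count says nothing particular about the pathway. An unadjusted limma p under 0.05 was found for 1 of the 47, Igfbpl1, against 8.06% of all listed genes. Igfbpl1 is named here after its values were seen. Igfbpl1 CPM was low and its groups overlapped, with 4.32, 11.01 and 6.50 in the control pools (replicates 3, 4 and 5) and 3.40, 5.87, 3.70 and 3.87 in the Gata6STOP/+ pools (replicates 1, 3, 4 and 5). Its log2 fold change of -0.66 (95% interval -1.25 to -0.07, limma adjusted p = 0.567) was -0.33 without control replicate 4. Their log2 fold changes had a median of 0.01, beside a median of -0.0007 over all genes, and 29 were above 0 and 18 below, beside 7339 above 0 of all 14732 genes. In the PI3K-AKT arm 8 of 12 listed genes were above 0, in the mTOR arm 5 of 8, among receptor adaptors 5 of 8 and in the RAS-MAPK arm 2 of 7. Ins1, Ins2, Insrr, Igfbp1, Igfbp6, Igfals, Pappa2 and Irs4 were not among the listed genes.

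Igf2 CPM ranged from 7660 to 9436 in control and from 7425 to 9126 in Gata6STOP/+ pools, with a log2 fold change of 0.0024 (95% interval -0.31 to 0.31) whose sign turned with the replicate block and without control replicate 5 or Gata6STOP/+ replicate 1, 4 or 5. Igf2 overlaps the antisense gene Igf2os, the library kit was directional, and the strand setting of the counting was not given in the sources used here. The log2 fold change of Igf2r was 0.09 (95% interval -0.15 to 0.33) and that of Insr 0.12 (95% interval -0.04 to 0.28). Without control replicate 5 these 2 values were 0.0099 and 0.05. None of the 3 genes passed the limma threshold, and neither did any other listed gene.

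Among the 47 genes the groups did not overlap for 2, Grb10 and Mapk3, against 8.47% of all listed genes, so nothing particular to the pathway is read from them. Grb10, an adaptor that restrains insulin and IGF receptor signaling, was at 1941 to 1999 CPM in control and 2025 to 2137 CPM in Gata6STOP/+ pools, a log2 fold change of 0.06 (limma adjusted p = 0.879). Mapk3, the gene of the kinase ERK1, was at 84.4 to 87.0 CPM in control and 77.7 to 83.9 CPM in Gata6STOP/+ pools, a log2 fold change of -0.08 (limma adjusted p = 0.773). Both differences were small against their 95% intervals, -0.11 to 0.23 for Grb10 and -0.20 to 0.04 for Mapk3.

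The genes whose pattern over the 7 pools was most like that of each gene were ranked by Pearson correlation, with no test, over the 11627 genes that averaged 5 CPM or more. Ccdc126 was close to Igfbp5 (r = 0.99). For Igfbp2 they were Ccdc90b (r = 0.984) and Gm10925 (r = 0.981), a pseudogene whose reads may be shared with other copies. Igf1 was most like Prxl2c (r = 0.978) and Stat2 (r = 0.973), and Igf1r most like Asap2 (r = 0.988) and Ptprf (r = 0.975). Cpped1 (r = 0.972) and Snx30 (r = 0.971) were nearest to Igfbp3, and Alas1 (r = 0.991) and Gm20431 (r = 0.965) to Igfbp4. Plcd3 (r = 0.998) and Dact3 (r = 0.976) were nearest to Igfbp7. These r values were picked as the highest of many and describe these pools alone.

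Marker levels were set beside the Igfbp5 and Igfbp2 values. The 5 listed of 6 neural crest and glia markers, led by Erbb3 at 12.1 CPM per kb, summed to 115, 81.8 and 89.3 CPM in control replicates 3, 4 and 5. In Gata6STOP/+ replicates 1, 3, 4 and 5 they summed to 80.7, 68.5, 76.6 and 71.2 CPM. The groups did not overlap for this sum, by a narrow gap, and overlapped for every other of the 10 lists. No single gene of this list had groups that did not overlap. Among all listed genes 8.47% had such groups, so nothing particular to this list is read from its sum. Foxd3 was not listed. The log2 summed level of this list had a Pearson correlation over the 7 pools of -0.88 with Igfbp2 and -0.55 with Igfbp5. Cushion mesenchyme markers, 7 of 7 listed, summed to 5526, 4530 and 5196 CPM in control and to 5109, 4128, 4427 and 4864 CPM in Gata6STOP/+ pools, with correlations of -0.82 with Igfbp2 and -0.31 with Igfbp5. Smooth muscle markers summed to 2959, 2598 and 2507 CPM in control and to 2619, 3312, 3473 and 2746 CPM in Gata6STOP/+ pools, with correlations of 0.36 and 0.58 in the same order. Second heart field markers summed to 399.9, 368 and 392 CPM in control and to 443, 408, 422 and 391 CPM in Gata6STOP/+ pools, with correlations of 0.38 and 0.64, the latter the highest of the 10 lists in absolute value for Igfbp5. The part of these cell types in the Igfbp2 and Igfbp5 values was not tested, and in pooled tissue fewer cells of a type and less RNA per cell cannot be told apart.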

How the data were processed

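The authors trimmed single-end reads of poly-A libraries with Cutadapt, estimated gene counts with RSEM on GRCm38 and deposited TMM-normalized CPM from edgeR. Their filter asked for 1 CPM or more in 3 or more samples, and each of the 14732 listed genes met it. Groups came from the sample labels. Whole reads were recovered from the CPM by finding what 1 read is worth. In 4 pools this was the lowest value above 0, and in 3 it was a whole fraction of that value (divisors up to 20 were tried). In each pool 100% of values then came out whole within 0.01 reads.

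The main test was limma 3.58.1 with a mean-variance trend on log2(CPM + 0.5), two-sided, with Benjamini-Hochberg adjustment over all genes and a threshold of 0.05. A fold change on this scale understates that of low genes. edgeR 4.0.16 and DESeq2 1.42.0 were run on the recovered reads as alternatives, in R 4.3.3. All fits were tested on simulated data. Exon lengths were unions of GENCODE M21 exons. Alternatives were another constant, a filter at a mean of 5 CPM, median-of-ratios scaling, a replicate block and leaving out each pool. Members and gene lists were chosen with earlier results of these data known. Named were the 7 genes, Gata6, Igf2, Igf2r, Insr, pathway genes whose groups did not overlap, the 2 genes most correlated with each of the 7, and leading or near-absent markers. Of the genes this rule takes, 2 are not reported here.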

Additional observations from a re-analysis of the deposited data

Results flagged for a closer look

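Of 38 values examined for a lone pool among the 4 Gata6STOP/+ pools, 2 stood apart, and chance alone sets apart about 1 in 20. Igf2r was at 2393 CPM in Gata6STOP/+ replicate 3, while the other 3 pools lay between 2851 and 2909 CPM. The control pools ranged from 2328 to 2862 CPM, so this pool lay within the control range. Ccdc126, a gene with a pattern like that of Igfbp5, was at 6.37 CPM in Gata6STOP/+ replicate 5 and between 5.76 and 5.86 CPM in the others.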

How the results depend on the processing

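Igf1, Igf1r, Igfbp2, Igfbp3 and Igfbp4 kept their direction and did not pass the threshold under any of the 10 other settings or without any of the 7 pools. Leaving out 1 pool moved Igf1 between -0.20 and -0.06, Igf1r between 0.03 and 0.10, Igfbp2 between 0.19 and 0.38, Igfbp3 between -0.36 and -0.13, Igfbp4 between -0.14 and -0.06, Igf2r between 0.0099 and 0.16, and Insr between 0.05 and 0.16. Igfbp5 kept its direction throughout, at 0.29 in the edgeR likelihood ratio test and 0.29 in DESeq2, the 2 settings in which it passed, with adjusted p from 0.000516 to 0.516 over all settings and a log2 fold change from 0.27 to 0.34 without single pools. The number of genes past the threshold was 1 with a constant of 0.1, 105 in the edgeR likelihood ratio test and 88 in DESeq2. Leaving out 1 pool gave from 0 to 13 genes, with 13 without control replicate 4. Genes whose groups did not overlap numbered from 1633 to 2811 without single pools, which fewer samples make more frequent.

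Same-numbered pools did not deviate together (correlations over genes of -0.046, -0.266 and -0.017 for numbers 3, 4 and 5). The main fit thus did not take the numbers as pairs. Between differently numbered control and Gata6STOP/+ pools the correlations ranged from -0.147 to 0.223. So few pools cannot settle whether the numbers mark pairs. With a replicate block, limma called 14 genes, the edgeR quasi-likelihood test 13 and the likelihood ratio test 118. Gata6 passed in the last of these (log2 fold change -0.42, adjusted p = 0.0164, from 0.0164 to 0.413 over settings). With the block, Igfbp7 was at -0.0084 in limma and at -0.010 in both edgeR tests, Igf2 at -0.031 in all 3 fits, Plcd3 at -0.0073 in limma and -0.0075 in edgeR, and Dact3 at -0.015 in all 3 fits. Igfbp5 passed the likelihood ratio test without the block (adjusted p = 0.049) and not with it (0.229), while its log2 fold change with the block was 0.31 in all 3 fits. The block changed no other call among the 7 genes.

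Differences near 0 changed sign. Igfbp7 was at -0.017 in the edgeR quasi-likelihood test, -0.019 in the likelihood ratio test and -0.018 in DESeq2, and ranged from -0.20 to 0.16 without single pools. In the same order Plcd3 was at -0.0030, -0.0031 and -0.0024, and Dact3 at -0.0013, -0.0013 and -0.0007. Without single pools Igf2 ranged from -0.072 to 0.079, Plcd3 from -0.15 to 0.12 and Dact3 from -0.098 to 0.085. The cause was not tested. The order of levels per kb was the same with the longest transcript.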
